A study of Schizosaccharomyces pombe with 6 samples.

Results

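The map described here is that of Pds5-GFP in wild-type fission yeast (Schizosaccharomyces pombe). It rests on the 2 arrays whose labels name wild-type Pds5-GFP chromatin immunoprecipitation (ChIP), replicates 1 and 2, out of 6 arrays in the series. On each array DNA precipitated with an antibody against GFP (Cy5) was hybridised together with whole-cell extract DNA (Cy3) of the same strain. Cells in log phase in rich medium (YEA) at 30 °C were moved to 18 °C for 2 h and then fixed with 3% paraformaldehyde plus DMA, a second cross-linker. Chromatin was sheared to 500 to 1000 bp. The lone Pds5-GFP arrays of swi6D and clr4D cells, which lack the heterochromatin protein Swi6 or the H3K9 methyltransferase Clr4 and were treated in the same way, and the wild-type H3K9me2 array, for which the labels name neither the 18 °C step nor DMA, serve as comparisons. The H3K9me2 array of pds5D cells, which lack Pds5, is used only for a check of the deleted genes in its extract channel. The labels used here do not give the promoter of the tagged gene or how many clones were used. All values are log2 ratios of ChIP over extract minus the median of the array, so 0 is the typical probe. An untagged control strain is not analysed here, and the signal is pooled over all cells of an asynchronous culture: fewer cells with Pds5 at a site and less Pds5 per cell cannot be told apart.

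Cohesin is the ring-shaped protein complex that holds sister chromatids together. Pds5 is a hook-shaped regulator that binds the ring and takes part both in keeping cohesion and in releasing cohesin from DNA. In fission yeast cohesin is known to gather at heterochromatin, through Swi6, and along chromosome arms near the ends of genes transcribed towards each other (convergent genes), whereas the spaces between genes transcribed away from each other (divergent genes) hold little of it.

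The range of the map along the arms is seen in the spaces between convergent genes. The highest and the lowest of the spaces that hold 3 or more probes were picked after their values were seen. They are of like width and gene arrangement. The middle 240 bases of each are shown, forward strand, lower case with nothing marked, from the RefSeq assembly ASM294v3, which may differ from the unstated build of the array. They were found through the annotated genes on either side and not by the array's own positions. The first lies at chrII:2939205-2939444 and the second at chrI:4011748-4011987.
ubp9 to SPBC1703.13C: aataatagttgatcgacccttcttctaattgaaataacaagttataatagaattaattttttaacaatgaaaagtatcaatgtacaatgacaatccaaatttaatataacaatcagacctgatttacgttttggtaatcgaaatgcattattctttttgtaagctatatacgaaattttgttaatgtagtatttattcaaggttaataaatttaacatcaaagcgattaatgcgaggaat
SPAC27E2.12 to SPAC27E2.14: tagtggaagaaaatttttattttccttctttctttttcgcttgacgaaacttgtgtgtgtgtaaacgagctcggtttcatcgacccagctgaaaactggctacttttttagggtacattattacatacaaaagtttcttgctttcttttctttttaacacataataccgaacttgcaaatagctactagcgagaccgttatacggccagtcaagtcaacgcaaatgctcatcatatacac

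The space of 1123 bp between ubp9, a gene for a ubiquitin-removing enzyme, and SPBC1703.13C averaged 1.83 on array 1 and 1.93 on array 2 over 4 probes. Its probe at tile 2940600 stood highest, at 2.58 and 2.28. The space of 1100 bp between SPAC27E2.12 and SPAC27E2.14 averaged -0.95 and -1.28 over 3 probes. Probes of the first space ranged from 1.47 to 2.58 over both arrays and those of the other from -1.42 to -0.77. That these sets did not overlap follows from the choice of the highest and the lowest space. G and C made up 27.0% of the bases of the first space and 35.3% of the second. Over all arm probes the correlation of the ratio with the GC content of the tile was -0.04 on array 1 and -0.02 on array 2, a description over probes that share fragments with their neighbours.

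The 2 arrays gave nearly the same map. Over 41082 chromosome probes Pearson's r was 0.963 and Spearman's rho 0.942, and over arm probes alone r was 0.946. The difference between the arrays had an SD of 0.185 per probe, against SDs of 0.663 and 0.687 for the ratios themselves. It stayed within 0.25 for 84.9% of probes and exceeded 1 at 22 probes. Over 4612 protein-coding genes with at least 3 probes, r was 0.976, rho 0.970 and the SD of the difference 0.121. Of the 100 highest genes on array 1, 87 were among the 100 highest on array 2. Of the 100 lowest, 49 were shared, so the order at the bottom of the map is less repeatable than at the top. Neighbouring probes and genes share fragments and are not independent replicates.

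**Figure D1:**
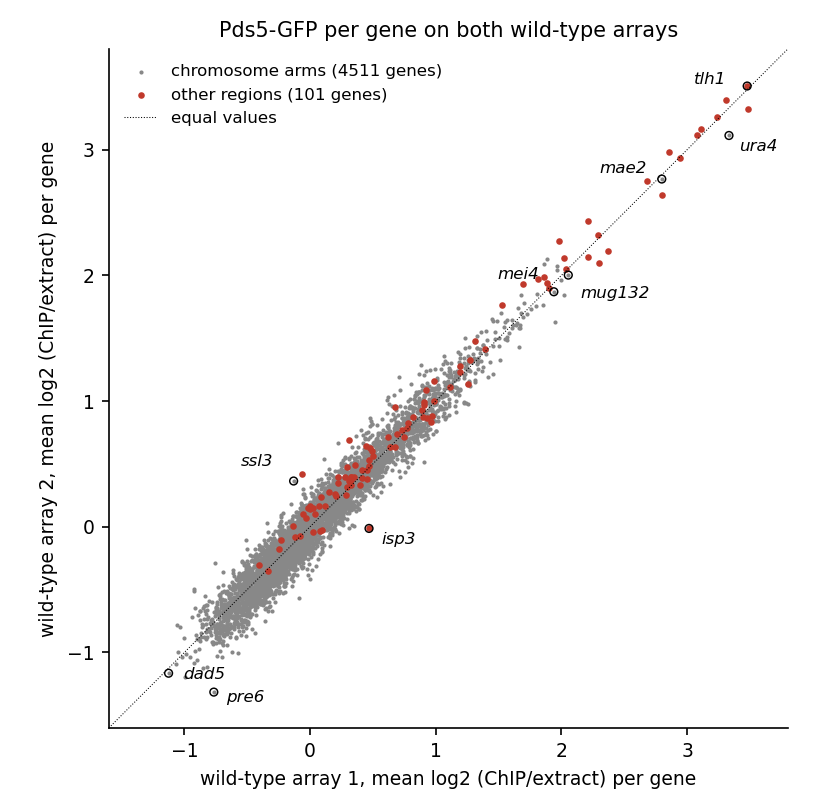
Mean log2 ratio of Pds5-GFP ChIP over extract per gene on wild-type array 1 (horizontal axis) against array 2 (vertical axis). Grey points are 4511 genes of the chromosome arms, red points 101 genes of centromeres, chromosome ends and other regions outside the arms, circles mark named genes and the dotted line marks equal values. The points follow the line from -1.15 (dad5) to 3.49 (tlh1), and pre6 is the gene farthest from it.

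A few genes differed between the arrays. pre6, a proteasome subunit gene, stood at -0.77 on array 1 and -1.32 on array 2 and was the 1 gene with a difference above 0.5. ssl3, a cohesin-loading factor gene, stood at -0.13 and 0.36. pho1, the acid phosphatase gene, had -0.07 and 0.42, and tgp1, a phosphate-regulated gene, 0.71 and 1.19. isp3, a gene at the left end of chromosome I, had 0.47 and -0.01. These 5 are the genes farthest apart, and for ssl3, pho1 and isp3 the sign itself differed between the arrays. Array 2 shares its slide and scan with the swi6D array, while array 1 and the clr4D array each lie on a slide of their own. pre6 had -1.39 on the swi6D array and -0.62 on the clr4D array. In the same order ssl3 had 0.19 and 0.20, and pho1 -0.21 and 0.002. For tgp1 the values were 1.34 and 1.27, and for isp3 -0.56 and 0.57. An effect of the slide was not tested. Mitochondrial DNA, where no cohesin is known, was the region of widest disagreement, with medians over 61 probes of -0.96 and -2.71, although its extract signal was alike at 3.91 and 3.98 above the median.

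Along the arms Pds5-GFP lay in separate peaks. A probe was called enriched where the running median of 3 neighbouring probes reached 1, and a peak is 2 or more such probes in a row. The arms leave out centromeres with 10 kb on either side, the last 100 kb of chromosomes I and II, the mating-type region and the rDNA. On the mean of both arrays 222 peaks lay in the arms and 53 elsewhere. The arm peaks covered 5.21% of the tiled length of the arms, and 93 of them were on chromosome I, 83 on II and 46 on III, an average of 18.8 per Mb of tiled arm. Array 1 alone gave 233 arm peaks and array 2 alone 243. Of the 233, 195 (83.7%, 95% exact binomial interval 78.3% to 88.2%, counting error only) overlapped a peak of array 2, and 194 of the 243 (79.8%) overlapped a peak of array 1. Peaks found on array 1 alone were low, with a median height of 1.06 and none above 1.32, against a median of 1.36 for the shared ones. On array 2 the medians were 1.08 and 1.40, and no unshared peak exceeded 1.60.

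Arm peaks were narrow and irregularly spaced. The median width was 2.4 kb (2400 bp) with quartiles of 1200 and 3900 bp, where the fragments themselves were 500 to 1000 bp. The narrowest 26 peaks spanned 600 bp, the least the definition allows, and 17 spanned 6 kb (6000 bp) or more. The median height was 1.32, and 13 peaks reached 2 or more. Summits on the same arm were a median of 44.9 kb apart, with quartiles of 19.1 and 79.1 kb. Of 216 spacings, 37 were under 10 kb and 30 were 100 kb or more. These sizes depend on the peak rule and the processing: the median width was 1500 bp at a height of 1.5, with loess or with no smoothing, and the median spacing was 23.7 kb at a height of 0.75, 25.2 kb with normexp and 134.4 kb at a height of 1.5. The count of arm peaks itself was 371 at a height of 0.75, 344 with normexp and 70 at a height of 1.5. The density was 15.6 peaks per Mb on the right arm of I, the lowest, and 21.2 on the right arm of II, the highest. The widest interval without a summit was 195.0 kb, from tile 1691100 to tile 1886100 on the right arm of III, followed by 194.1 kb on the left arm of I between tiles 3539700 and 3733800.

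**Figure D2:**
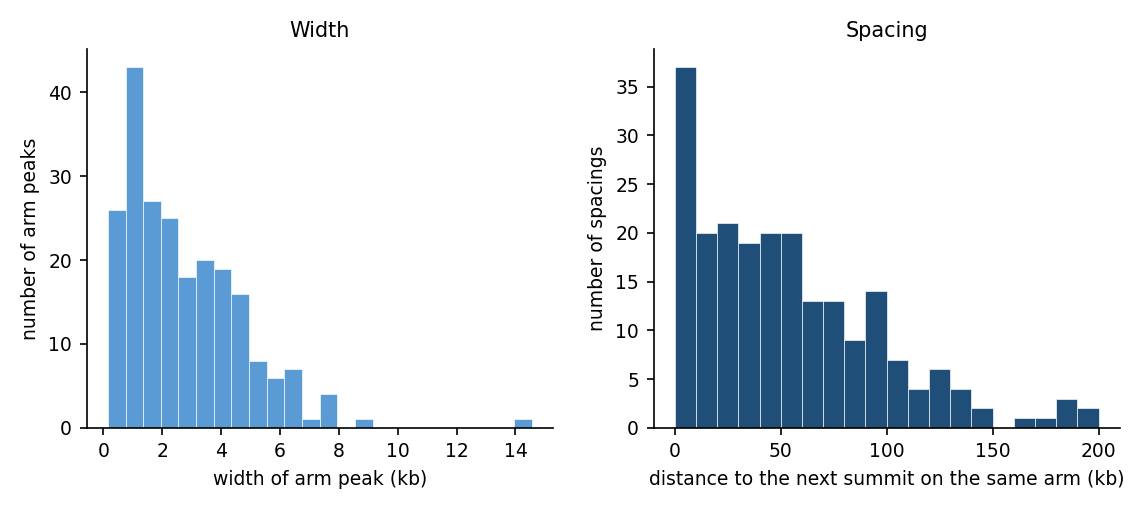
Histograms of the width of the 222 arm peaks (left, in kb, bins of 0.6 kb) and of the 216 distances between neighbouring summits on the same arm (right, in kb, bins of 10 kb), from the mean of both wild-type arrays. Widths centre on 2.4 kb with 1 peak at 14.4 kb, and spacings spread from 1.2 to 195.0 kb without a preferred value, the bin under 10 kb being the fullest with 37.

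At the 4 highest arm peaks the wild-type H3K9me2 array was also high. The peak over ura4, the uracil synthesis gene used as a strain marker (tiles 115200 to 117300 of III), had a height of 3.44. Those over mae2, a malic enzyme gene (tiles 275100 to 276900 of III), and mae1, a malate transporter gene (tiles 4907400 to 4908600 of I), had heights of 2.99 and 2.93. The peak at the mat1 cassette, which sets the mating type (tiles 2115900 to 2117100 of II), reached 2.89. Many of their probes, 6 of 7 at mae2, 3 of 5 at mae1 and 4 of 5 at mat1, carry a name suffix that several probes share and whose meaning the sources used here do not give. Whether the signal at mae2, mae1 and mat1 comes from these positions alone is therefore not known. No probe of the ura4 peak carries such a suffix. The array reads the sequence of ura4 and not its place in the genome. Whether a ura4 marker lies elsewhere in these strains was not tested, so the position that gives the ura4 signal is not known either. The ura4 peak was sharp: the 4 probes of ura4 averaged 3.33 and 3.11, the single probe of tam14 beside it 1.05 and 0.92, that of new25 on the other side -0.04 and -0.01, and SPCC330.07C, which begins at tile 120600, was the third lowest gene of the genome at -1.06 and -1.09. Wild-type H3K9me2 averaged from 4.61 to 5.86 over these 4 peaks.

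The next highest arm peaks lay in ordinary gene-rich chromatin. The peak from opa3 through ubp9 to SPBC1703.13C (tiles 2937300 to 2941800 of II) reached 2.29. The one over mct1, mug132, trm5 and ppk18 (tiles 3965700 to 3974100 of I) reached 2.25 and was the second widest at 8700 bp. Peaks over gas2, tri1 and dbl8 (2.25), over ntu2, mrl1 and anc1 (2.24), at the facing ends of cdc42 and pss1 (2.23) and over med15, SPBC146.02 and cut3 (2.22) followed. Their mean ratios were 1.60 to 1.74 on array 1 and 1.64 to 1.91 on array 2. The peak of cdc42, the gene of the GTPase of cell polarity, lies just downstream of pds5, the gene that carries the tag. Over these 6 peaks wild-type H3K9me2 was between -0.57 and 0.01, and none of their probes carries a shared suffix.

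The widest arm peak, 14400 bp and 48 probes (tiles 3726900 to 3741000 of I), was lower, at a height of 1.62 with means of 1.29 and 1.36. It spans ect1, vps29, moa1, naa10, grx2, fub1, gua2, prm1 and lys1. moa1 encodes a meiotic kinetochore protein that works with cohesin, and vps29 a retromer subunit. Its right edge lies close to centromere 1, and H3K9me2 averaged 2.95 over it. After the mug132 peak came the peak over med15 to cut3, of 7800 bp, and then 3 of 7500 bp. These 3 lay over aim21 to SPBC18E5.10 with a height of 1.94, over crp79 to gls2 with 1.53 and over pyp1 to SPAC26F1.08C with 1.49. H3K9me2 averaged 1.67 over the first of the 3 and -0.21 and -0.29 over the others.

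Summits gathered at the ends of genes. With each gene split into 3 equal parts, 108 of 222 arm summits (48.6%) lay in the last part of a gene, where 22.5% of arm probes lie, and 25 (11.3%) in the first part, where 26.3% do. Spaces between convergent genes held 13 summits (5.86%) and 1.24% of arm probes. Spaces between divergent genes held 3 (1.35%) and 9.89% of arm probes. Spaces between tandem genes, read in the same direction, held 15 (6.76%) and 9.35%. A point halfway between the facing ends of convergent genes, overlapping pairs included, lay within 1 kb of 123 summits (55.4%) and of 22.8% of arm probes. The median distance to such a junction was 728 bp for summits and 2326 bp for arm probes. The class of the probe had no part in calling peaks. These shares were not tested and are descriptions, since a sign-flip permutation over 2 arrays cannot give a p below 0.5.

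The ratio fell steadily with distance from a convergent junction. Within 250 bp it averaged 0.29 on both arrays, from 500 to 1000 bp 0.20 on both, from 2500 to 5000 bp -0.03 and -0.04, and beyond 5000 bp -0.21 and -0.23. The share of enriched probes fell with it, from 10.8% between 250 and 500 bp to 0.299% beyond 5000 bp. Probes in convergent spaces averaged 0.37 and 0.35 (0.36 ± 0.02, SD, n = 2), those in tandem spaces 0.00 and -0.03, and those in divergent spaces -0.18 and -0.22 (-0.20 ± 0.03). The difference of convergent and divergent means was 0.56 on array 1 and 0.57 on array 2. Convergent spaces varied widely among themselves: 41 of 260 convergent spaces (15.8%) averaged 1 or more on both arrays, and 69 (26.5%) were at or below 0. Of 1051 divergent spaces, 15 (1.43%) averaged 1 or more on both arrays and 726 (69.1%) were at or below 0. The highest convergent spaces with 1 probe were kri1 to ura1 (2.32 and 1.91) and cdc42 to pss1 (1.95 and 2.19).

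Along genes of at least 1200 bp the ratio rose from start to end. With each gene cut into 10 equal parts, the first part averaged -0.05 and -0.06 and the last part 0.23 on both arrays, a difference of 0.27 and 0.29 (0.28 ± 0.01, SD, n = 2). Genes with a convergent neighbour downstream rose from 0.04 on both arrays to 0.35 and 0.36, and the ratio fell again past the end, to 0.18 on both from 1.2 to 1.5 kb beyond it. Genes with a tandem neighbour rose from -0.17 and -0.19 to 0.07 on both. Past the end they had 0.08 and 0.06 in the first 300 bp and 0.14 and 0.15 from 1.2 to 1.5 kb. The arrays differed by less than 0.04 at each position of either class.

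**Figure D3:**
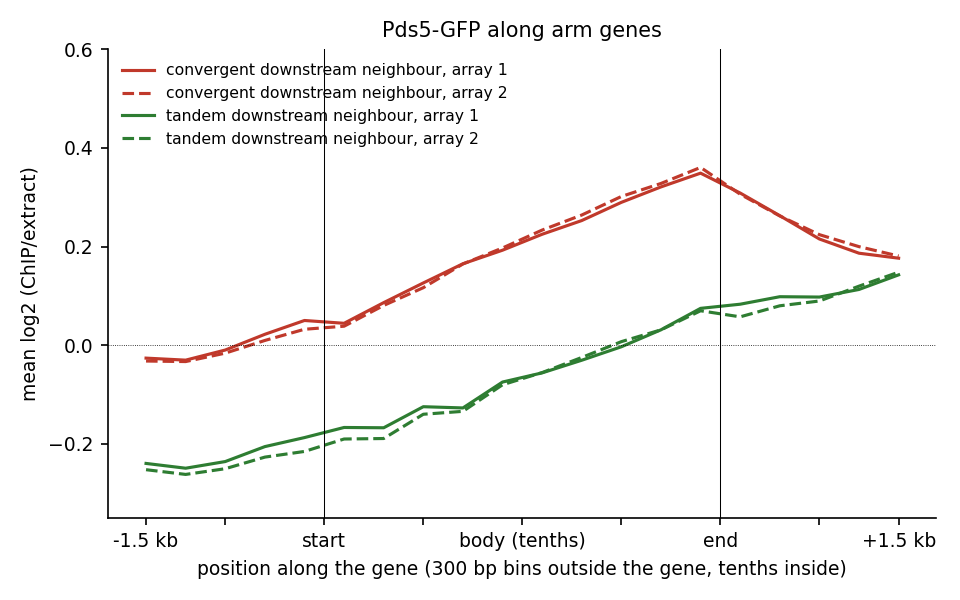
Mean log2 ratio of Pds5-GFP along arm genes of 1200 bp or more, from 1.5 kb before the start to 1.5 kb past the end (300 bp bins outside the gene, 10 equal parts inside), for genes whose downstream neighbour is convergent (red) or tandem (green). Solid lines are array 1 and broken lines array 2. Both classes rise along the gene, and the convergent class peaks at its end at 0.35 and 0.36.

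Gene by gene, most of the genome departed from the array median by more than the spread of the arrays. In limma, with Benjamini-Hochberg adjustment over 4612 genes, 1908 genes (41.4% of those tested) stood above the median and 1875 (40.7%) below it at an adjusted p under 0.05. The fit gave each gene the same standard error of 0.0606, from the pair of arrays, which the labels do not describe as separate cultures, so a p-value here sees only how this pair differs, which may be technical. Because so many genes pass, size is the more useful guide. A mean ratio of 1 or more on both arrays was found for 219 genes (4.75%), 188 of them in the arms. A ratio of -0.5 or less on both was found for 419 genes (9.08%), all in the arms. The arms hold 4511 of the 4612 genes measured. The median gene length was 2025 bp for the 188, 1582 bp for the 419 and 1894 bp for all genes.

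The highest genes of all sat mostly at the ends of chromosome I. tlh1, a telomere-linked helicase gene at the first tile of I, had 3.48 and 3.51. SPAC186.08C near the other end had 3.48 and 3.32. Of the 15 highest genes, 13 lay in the last 100 kb of I or II, and the other 2 were ura4 and mae2. The pyruvate decarboxylase gene pdc102 had 2.86 and 2.98 there, and gdt1 2.94 and 2.93. All 15 highest genes had 2.19 or more on both arrays, and 7 of them hold no probe with a shared suffix.

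Among arm genes, mug132, a gene induced in meiosis, followed ura4 and mae2, with 2.06 and 2.00 over 9 probes. Whether the signal of ura4 and mae2 comes from their arm positions is not known, as stated above. rpb7, which encodes a subunit of RNA polymerase II, had 1.89 and 2.13. cdc42 had 1.86 and 2.09, kri1, a ribosome assembly gene, 2.02 and 1.85, and mei4, the master regulator of meiotic transcription, 1.94 and 1.87. ubp9 (1.80 and 1.85), the splicing factor gene spf30 (1.79 and 1.76) and the proteasome assembly gene nas2 (1.68 and 1.84) closed the 15 highest together with mrl1, opy1, SPBC146.02, SPBC18E5.08 and mae1. Apart from mae1, whose arrays were 0.32 apart, the arrays differed by at most 0.24 at these genes, and below mae2 the order is not resolved.

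The 15 lowest genes were all in the arms, as were 4511 of all 4612 genes measured. dad5, which encodes a subunit of the DASH complex at kinetochores, was the lowest at -1.13 and -1.17 (tiles 1671000 to 1671600 of III). alg5, a glucosyltransferase gene of protein glycosylation, had -0.88 and -0.98, pxd1, a gene of DNA repair, -0.92 and -1.08, and thi20, a thiamine synthesis gene, -0.99 and -1.01. acp2, which encodes an actin-capping subunit, had -0.82 and -1.12. All 15 lowest genes stood at -0.77 or less on both arrays and none holds a probe with a shared suffix. Neighbours in rank had means closer together than the standard error of 0.0606.

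**Figure D4:**
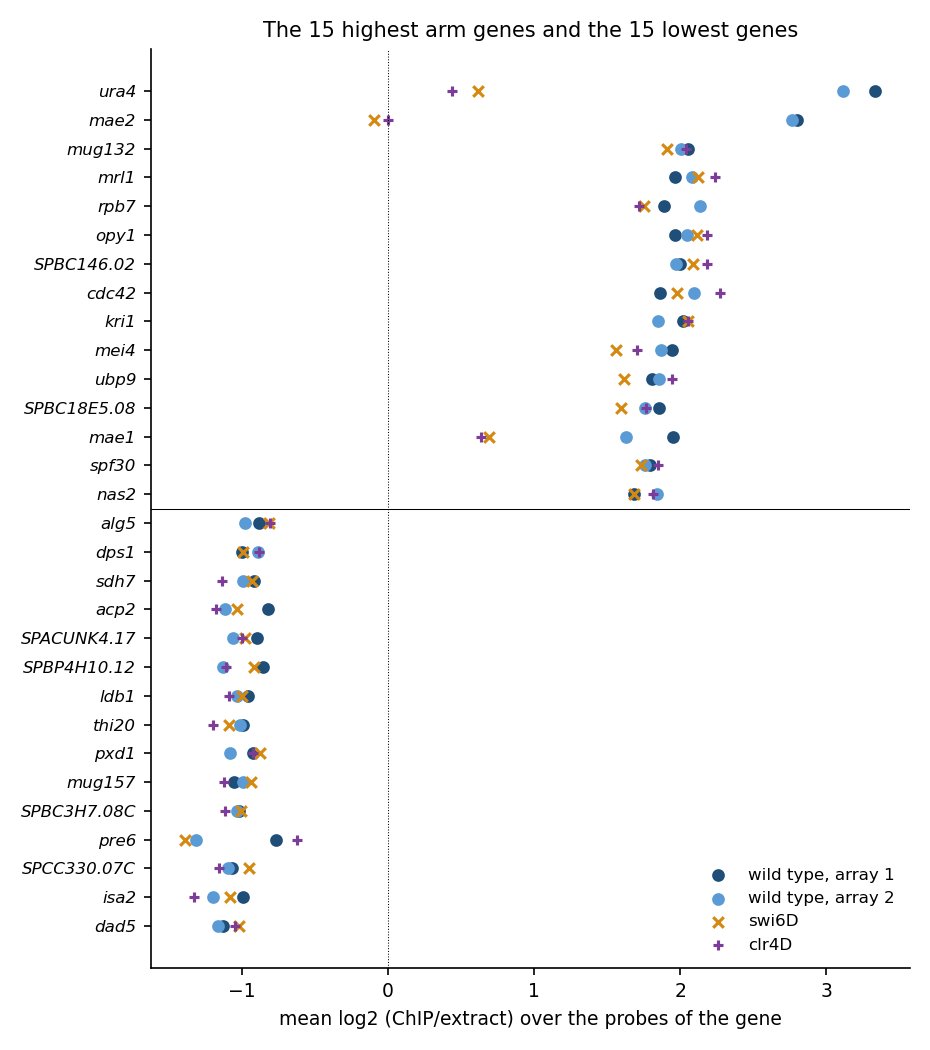
Mean log2 ratio over the probes of a gene for the 15 highest arm genes (above the line) and the 15 lowest genes (below it), with 1 point per array: wild-type arrays 1 and 2 (filled circles), swi6D (crosses) and clr4D (plus signs). Mutant points lie near the wild-type pair at most genes, and far to the left at ura4, mae2 and mae1.

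The genes of cohesin and its regulators held no common level. Of 13 measured, 5 stood above the median in limma and 4 below, where 41.4% and 40.7% of all genes did, with list medians of 0.07 and 0.11 against -0.01 and 0.00 over all genes. rec11, a meiotic cohesin subunit gene, was the highest at 1.03 and 1.05. cut1, the separase gene, was the lowest at -0.31 and -0.39, followed by cut2, the securin gene, at -0.32 and -0.23. pds5 itself had 0.21 and 0.11, and rad21, the kleisin gene, 0.13 and 0.06. Of 5 condensin genes, 4 were above the median and none below, with medians of 0.86 on both arrays, and with so few members no group difference was tested. cut3 had 1.62 and 1.61, cnd3 1.12 and 1.30, and cut14 0.06 and -0.02.

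Of 16 heterochromatin factor genes, 7 were above and 5 below, beside 41.4% and 40.7% of all genes, with medians of 0.08 and 0.02. rdp1, the RNA-dependent RNA polymerase gene, was highest at 0.88 and 1.28, and raf2 lowest at -0.48 and -0.64. Of 11 meiotic genes targeted by the RNA-binding protein Mmi1, 5 were above and 5 below, from mei4 at the top to mcp7 at -0.65 and -0.67. Of 13 genes regulated by phosphate, iron, thiamine or sugar, 8 were above and 3 below. frp1, an iron reductase gene, had 1.07 and 1.04, and fbp1, the gene of fructose-1,6-bisphosphatase that glucose represses, -0.67 and -0.69. The list medians were 0.36 and 0.33.

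Strongly transcribed genes were not uniformly high or low. Of 13 metabolic genes measured of 14 listed, 3 were above and 6 below, beside 41.4% and 40.7% of all genes. The glycolytic genes eno101 (-0.78 on both arrays), pdc101 (-0.73 and -0.54) and adh1 (-0.58 and -0.55) met the low size rule, whereas act1, the actin gene, stood at 0.91 and 0.99, partly under the mei4 peak. Of 61 ribosomal protein genes measured of 141, 24 were above and 24 below, from 1.40 and 1.56 at rpl3002 to -0.74 and -0.65 at rpl2501. Of 7 heat-shock and chaperone genes measured of 8, 1 was above and 2 below, and of 8 histone genes measured of 10, 1 and 3. Genes too short for 3 probes are not in these counts. Arm tRNA genes, measured as the probes within 150 bp, had medians of 0.32 and 0.30 over 115 genes, with 8 (6.96%) at 1 or more on both arrays. That level was met by 4.75% of protein-coding genes of all regions. Their means rest on at least 3 probes, so the measures are unlike. The 36 arm 5S genes had 0.32 and 0.28.

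Outside the arms Pds5-GFP was highest at the pericentromeric repeats, with medians of 4.20 and 4.26 over 186 probes (4.23 ± 0.04, SD, n = 2), 182 of which carry a shared suffix. The silent mating-type region, defined here by its probes without a shared suffix, had 3.78 and 3.66 over 38 probes. The mating-type stretch in the tiles of chromosome II had 3.04 and 2.92 over 37 probes, 16 of them with a shared suffix. The 21 without had a median of 1.94 on the mean of both arrays. From the edge of the centromeres the ratio dropped fast: within 5 kb its median was 1.90 on both arrays, from 5 to 10 kb 0.32 and 0.42, and from 10 to 25 kb -0.03 and 0.02. Between 10 and 25 kb 71 probes (23.7%) were nonetheless enriched, against 5.59% from 200 to 500 kb. Most of the 71 lay in the widest arm peak, of 48 probes left of centromere 1, and in a peak of 22 probes left of centromere 3. The ends of chromosome I were high over 20 kb on the left, at 3.37 and 3.34 in the first 10 kb and 3.32 and 3.29 in the next, and reached 0.71 and 0.80 between 40 and 50 kb. On the right end they held 2.56 and 2.55 between 40 and 50 kb. The left end of II was at 2.06 and 2.11 in its first 10 kb, and the right end at 2.00 and 2.09. The central domains of the centromeres differed between the arrays, at 0.41 and 0.72.

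Most arm peaks were also high on the swi6D and clr4D arrays. Peaks called on array 1 and measured on arrays that had no part in calling them had a median mean ratio of 1.22 on array 2, 1.19 in swi6D and 1.28 in clr4D. The reverse, with the 243 peaks of array 2, gave 1.16 on array 1, 1.19 in swi6D and 1.27 in clr4D. Of the 222 peaks of the mean map, 166 (74.8%) averaged 1 or more in both mutants. On both wild-type arrays, which called the peaks, 190 did. At 0.5 or more, a level below the peak threshold of 1, were 218 in both mutants. These include the mae1 peak, at 0.55 in swi6D and 0.53 in clr4D. They leave out a peak at tiles 2340000 to 2341200 of II, which had 1.20 and 1.36 in wild type, 0.55 in swi6D and 0.42 in clr4D. In swi6D 4 peaks stood 1 or more below both wild-type arrays, those over ura4, mae2, mae1 and mat1, and in clr4D 4 did, at these genes, in comparisons that share the wild-type arrays. At ura4 the peak mean went from 2.78 and 2.66 to 0.56 in swi6D and 0.45 in clr4D, and at mae2 from 2.59 and 2.50 to -0.05 and -0.01. H3K9me2 in wild type averaged 1 or more over 24 of the 222 arm peaks, 14 of them within 150 kb of a centromere. Its median over all arm peaks was -0.05 and over arm probes -0.03. The shares of all arm probes at that H3K9me2 level and at that distance are not given here, so neither count is read against a background. The peak at mei4 is 1 of the 24, with H3K9me2 at 4.26. Its Pds5-GFP was 1.74 and 1.71 in wild type, 1.44 in swi6D and 1.52 in clr4D. Peaks that average little above 1 can be 1 or more lower only by losing most of their ratio. The widest arm peak had 1.29 and 1.36 in wild type, 1.01 in swi6D and 0.95 in clr4D. The peak at tiles 1051800 to 1058100 of III had 1.20 and 1.24, then 0.71 in each mutant. That at tiles 1221300 to 1222800 of III, with H3K9me2 at 1.52, had 1.26 and 1.47, then 1.51 and 1.47.

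**Figure D5:**
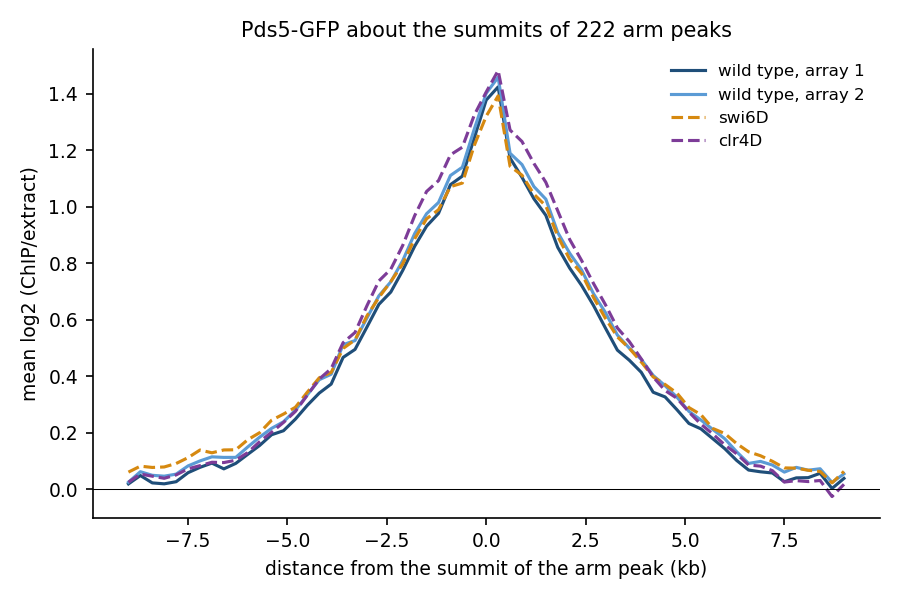
Mean log2 ratio of Pds5-GFP within 9 kb on either side of the summits of 222 arm peaks called on the mean of the wild-type arrays, in steps of 300 bp, for wild-type arrays 1 and 2 (solid) and the swi6D and clr4D arrays (broken). The summit is the first probe at the highest running median of a peak, so the curves top out 300 bp beyond it, at 1.42 and 1.46 in wild type. At the summit itself the values are 1.38 and 1.40 in wild type, 1.32 in swi6D and 1.41 in clr4D, and at 9 kb to the right 0.04, 0.05, 0.06 and 0.02.

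Across genes, limma in 3 groups called 147 of 4612 genes (3.19%) lower and 34 (0.737%) higher in swi6D than in wild type, and 112 (2.43%) lower and 69 (1.5%) higher in clr4D. All of its spread comes from the wild-type pair, each mutant array is assumed to vary like it, and both comparisons share the wild-type arrays. With normexp background correction 1318 genes were lower in swi6D and 332 higher, so the smaller differences depend on the processing. By size, 26 genes (0.564%) lay 1 or more below both wild-type arrays in swi6D, and 26 in clr4D. The wild-type arrays that chose the 188 arm genes at 1 or more also enter any difference from them, so their levels are given as a description. Their median was 1.26 in wild type, 1.24 in swi6D and 1.34 in clr4D. The 31 genes outside the arms at 1 or more had medians of 2.13 in wild type, 0.19 in swi6D and 0.24 in clr4D.

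On both wild-type arrays 99.94% and 99.91% of spots were well above background in both channels and none was saturated. In the extract channel the genes deleted in other strains were present: pds5 stood at 0.44 and 0.23 in the wild-type pair and at -6.95 on the pds5D array, and swi6 at -0.07 and -0.15 against -4.40 on the swi6D array. clr4 stood at 0.27 and 0.31 in the wild-type pair and had a median of -0.41 over its 15 probes on the clr4D array, where the lowest probe was at -7.16, so most of its probes there kept extract signal.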

How the data were processed

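Chromatin immunoprecipitates and extracts were hybridised to Agilent tiling arrays of 60-mer probes at about 300 bp steps, read with Agilent Feature Extraction 12.0.3.1, per the file headers. The processed intensity of each channel in the deposited scanner files had its background subtracted and its dye balance set with a linear factor, and median spot and background intensities stand beside it. Per the file headers the scanner's own ratio is log10 of Cy5 over Cy3. The authors' deposited table holds log2 ratios that match it and are not centred, with medians of -0.087 and -0.0914 on the wild-type arrays. Control and outlier-flagged spots were left out, 72 and 99 outliers on the pair, and log2 of Cy5 over Cy3 minus the array median was taken. Dim probes were kept. No source used here gives the genome build of the tiles. Tiles were placed on the RefSeq assembly ASM294v3 by shifts in steps of 50 bp that best matched tile GC content to extract signal, so gene bounds are approximate, and tile positions in the text are the array's own. Gene values are means over at least 3 probes. Gene means went into limma's lmFit and eBayes (version 3.58.1, R 4.3.3) with Benjamini-Hochberg adjustment and a threshold of 0.05, a step first tested on simulated data. The pair of arrays leaves 1 residual degree of freedom, and the spread was shared across genes. Named genes are the 15 highest and 15 lowest, the 15 highest of the arms, genes at the 10 highest and 5 widest arm peaks, the 5 most different between the arrays and members of the lists. Members and lists were chosen with earlier results of these data known. The 10 kb beside the centromeres were taken out of the arms after the data were seen. The number of arrays limits the precision. Alternatives covered background, dye trend, ChIP signal alone, probe sets, peak rules, gene bounds and each array alone. No deposited column went unmapped to a sample.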

Additional observations from a re-analysis of the deposited data

How the results depend on the processing

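No paired analysis was possible because each mutant has 1 array and the wild-type pair is 1 group. The arm peak count of 222 became 371 at a height of 0.75, 70 at 1.5, 344 with normexp and 963 with the ChIP signal alone, and 223 with the centromere flanks counted as arm, an alternative chosen after seeing the data. The share of array 1 peaks found on array 2 became 91.9% at a height of 1.5 and 77.1% with normexp, and r over probes 0.946 with loess, 0.912 with normexp and 0.951 without shared-suffix probes. The rise along genes of 0.28 became 0.21 with the ChIP signal alone, 0.27 with loess and 0.30 with normexp. The convergent minus divergent difference of 0.56 became 0.53, 0.51 and 0.54, and 0.52 in spaces of 600 bp or more. The repeats' median of 4.23 became 5.17, 3.41 and 4.16, and 3.79 without shared-suffix probes. The ChIP signal alone left 986 genes at -0.5 or less and 398 at 1 or more. Genes 1 or more lower, 26 in each mutant, became 6 with at least 5 probes, 50 with gene bounds widened by 500 bp and 9 without shared-suffix probes, in each mutant. They stayed at 26 for swi6D on the slide it shares with wild-type array 2. In limma, genes lower in swi6D became 42 with the ChIP signal alone, 86 with at least 5 probes, 67 with loess and 1318 with normexp, and those higher 15, with the deposited ratios 19, with loess 4 and with normexp 332. Genes lower in clr4D became 48, 66, 62 and 41 under the same settings as for the lower genes of swi6D, and those higher 21 with the ChIP signal alone, 42 with the deposited ratios, 14 at equal deviation, 21 with loess and 11 with normexp. With 1 wild-type array limma had no residual degrees of freedom and was not run. The median arm peak width of 2400 bp became 1200 bp with the ChIP signal alone and 1500 bp with loess, no smoothing or a height of 1.5, and the median spacing of 44.9 kb became 7.2 kb with the ChIP signal alone, 23.7 kb at a height of 0.75, 25.2 kb with normexp, 30.0 kb with no smoothing and 134.4 kb at a height of 1.5. Of 1606 tested values of the 168 genes named or listed, 1526 kept the presence or absence of a call, 27 lost the call, 38 gained one and 15 called ones changed sign. The sign changed with the ChIP signal alone for hhf2 (0.085), inv1 (0.16), isp3 (-1.80), mis4 (-0.25), pho1 (-1.76), rpl2302 (-0.28), spo5 (0.48), tas3 (0.043) and wpl1 (-0.34). With loess it changed for ght5 (-0.083), ght8 (-0.013) and rga7 (-0.045), with normexp for pho1 (-0.055) and tef102 (-0.0375), and with widened bounds for tef102 (-0.0083). isp3 was -0.0132 without replicate 1 and 0.47 without replicate 2, and pho1 0.42 and -0.068. The ChIP signal alone also turned the cohesin list (-0.17), convergent spaces (-0.35), central domains (-3.04) and mitochondrial DNA (2.15). Normexp turned the central domains (-0.70), and the deposited ratios the Mmi1 list (-0.041). The ChIP signal alone is not divided by the extract signal. The causes of these changes were not tested.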
